A study of Mus musculus with 12 samples.

Results

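The nuclear genes of oxidative phosphorylation were followed in myelin purified from mouse brains at 4 ages. The genes were chosen by a rule on symbols, namely every symbol that begins with Nduf, Uqcr, Cox4 to Cox8 or Atp5, together with Sdha, Sdhb, Sdhc and Sdhd. No measured value entered the rule, although it was set with earlier results of these data known. The rule gave 90 of the 21937 genes in the deposited table, of which 18834 had a read in at least 1 library. By role, 74 of the 90 are structural subunits, with 36 in complex I, 4 in complex II, 8 in complex III, 11 in complex IV and 15 in complex V. Another 8 are isoforms of restricted tissue range, 4 are assembly factors of complex I, and 1 (Cox7a2l) joins complexes III and IV into supercomplexes. The other 3 (Atp5s, Atp5sl and Cox4nb) match the symbols but were assigned none of these roles here. Ndufa4 is named after complex I but is counted here as the complex IV subunit it is now known to be.

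The mice were wild-type males of the c57Bl6/N strain with no treatment, aged P18 (18 postnatal days), P75 (75 days), 6 months and 24 months. A light membrane fraction enriched for myelin was taken from the brain by sucrose gradient, and total RNA was sequenced in 3 libraries per age, 12 in all. The study names individual brains as the source of the 6-month libraries. For the other ages the number of mice per library was not given in the sources used here, so p-values measure the spread between these libraries. The 12 libraries held 20299052 to 27214385 reads on genes, and Mbp, the major mRNA of compact myelin, took 4.76% to 20.8% of them. All values are normalized read counts, that is, reads on a gene divided by the size factor of the library, and they are not divided by gene length unless a sentence says so.

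In the inner mitochondrial membrane, complexes I and II feed electrons from NADH and succinate to ubiquinone, complex III passes them to cytochrome c, and complex IV reduces oxygen. Complexes I, III and IV pump protons in the process, and complex V, the ATP synthase, lets the protons return to make ATP. Here 20 nuclear subunits were listed as core, not all of them catalytic, and the other 54 were counted as accessory. All 4 subunits of complex II were listed as core, and the other complexes also hold subunits encoded by mitochondrial DNA. In the brain most of this ATP serves the ion pumps of neurons, while myelinating oligodendrocytes are known to rely to a large degree on glycolysis. The mRNAs described here are made in the nucleus, and their presence in a myelin fraction says nothing of where their proteins work.

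The genes Atp5g1, Atp5g2 and Atp5g3 are shown first because they are the clearest case in which different genes make the same subunit, so that a share between them can change without any change in the enzyme. They encode the c subunit, the ring of complex V that turns with the proton flow. The last 228 coding bases with the stop codon, which cover the mature protein, are given from the GENCODE vM1 transcripts of NCBIM37, with capitals at the 58 positions where the 3 genes are not all alike. The genes lie on chromosomes 11, 15 and 2 in the order given.
Atp5g1: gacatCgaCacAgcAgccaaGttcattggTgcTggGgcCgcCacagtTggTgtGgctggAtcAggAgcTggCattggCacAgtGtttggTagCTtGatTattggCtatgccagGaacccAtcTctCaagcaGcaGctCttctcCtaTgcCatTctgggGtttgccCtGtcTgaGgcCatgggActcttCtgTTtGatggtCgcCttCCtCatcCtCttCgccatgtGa
Atp5g2: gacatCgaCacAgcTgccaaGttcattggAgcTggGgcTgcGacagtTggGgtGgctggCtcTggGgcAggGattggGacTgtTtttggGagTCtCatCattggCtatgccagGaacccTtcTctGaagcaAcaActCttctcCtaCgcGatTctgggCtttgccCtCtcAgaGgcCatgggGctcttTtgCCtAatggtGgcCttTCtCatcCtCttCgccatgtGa
Atp5g3: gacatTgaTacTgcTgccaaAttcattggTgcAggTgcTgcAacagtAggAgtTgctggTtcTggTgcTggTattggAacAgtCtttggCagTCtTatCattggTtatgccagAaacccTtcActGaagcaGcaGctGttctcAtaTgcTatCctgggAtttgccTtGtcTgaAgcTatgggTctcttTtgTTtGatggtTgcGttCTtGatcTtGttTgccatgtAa
Over these bases Atp5g1 and Atp5g2 were 85.1% identical, Atp5g1 and Atp5g3 79.8% and Atp5g2 and Atp5g3 78.5%. Every codon that differed was synonymous, with 32 such codons in the first pair, 43 in the second and 45 in the last. Reads from the 3 genes can thus be told apart by base, although the handling of reads that match more than 1 place was not given in the sources used here.

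Upstream sequence is shown for 4 genes because members of the same complex moved in opposite directions with age. For 74 of the 90 genes RefSeq (GRCm38.p6) gave a start site, and the 250 bases before it were searched on both strands for GCGCATGC (the core site of NRF1), CCGGAAG (the core of ETS factors such as GABPA), AAGGTCA (a site of ESRRA) and AAGATGG (the core of YY1). These factors are known activators or repressors of nuclear respiratory genes. The NRF1 core was in the window of 9 of 74 members (12.2%) against 2.56% of 27025 genes with a window. The ETS core was in 13 of 74 (17.6%) against 7.83%. The ESRRA letters were in 5 of 74 (6.76%) against 4.7%, and the YY1 core in 2 of 74 (2.7%) against 5.18%. The shares are descriptions of these letters in this window, without a test. Below, capitals mark the matches in Ndufa6, the complex I subunit with the deepest fall at 6 months, in Atp5l, the complex V subunit with the highest level per kb, and in Sdhb and Sdha, subunits of complex II that moved in opposite directions.
Ndufa6 upstream, chr15:82354292-82354541, strand -: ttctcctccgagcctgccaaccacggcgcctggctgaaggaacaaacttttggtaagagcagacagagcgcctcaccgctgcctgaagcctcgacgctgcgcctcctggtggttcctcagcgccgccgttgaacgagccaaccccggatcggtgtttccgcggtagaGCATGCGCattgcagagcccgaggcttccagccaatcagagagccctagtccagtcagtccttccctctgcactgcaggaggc
Atp5l upstream, chr9:44920743-44920992, strand -: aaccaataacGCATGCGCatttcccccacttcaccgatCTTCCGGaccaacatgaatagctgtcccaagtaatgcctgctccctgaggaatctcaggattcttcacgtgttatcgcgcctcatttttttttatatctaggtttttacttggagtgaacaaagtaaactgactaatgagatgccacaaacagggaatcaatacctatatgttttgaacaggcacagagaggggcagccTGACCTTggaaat
Sdhb upstream, chr4:140961021-140961270, strand +: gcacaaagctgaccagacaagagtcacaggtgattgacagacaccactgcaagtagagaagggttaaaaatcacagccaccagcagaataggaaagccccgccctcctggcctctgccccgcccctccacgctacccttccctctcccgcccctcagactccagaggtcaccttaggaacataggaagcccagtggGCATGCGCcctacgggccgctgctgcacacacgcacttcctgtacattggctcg
Sdha upstream, chr13:74350241-74350490, strand -: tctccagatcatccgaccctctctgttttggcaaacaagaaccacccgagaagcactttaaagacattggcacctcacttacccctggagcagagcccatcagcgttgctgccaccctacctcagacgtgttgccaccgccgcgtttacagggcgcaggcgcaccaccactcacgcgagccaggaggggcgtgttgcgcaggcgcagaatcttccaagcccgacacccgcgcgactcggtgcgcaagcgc
Ndufa6 and Sdhb each held 1 NRF1 core, Atp5l held 1 each of the NRF1, ETS and ESRRA letters, and the window of Sdha held none of the 4. Among members with a window that were lower at 6 months than at P75, 9 of 64 held the NRF1 core, and of those not lower, 0 of 9 did, while the ETS core was in 11 and 2 of the same genes. The windows shown are thus not typical, since most lower members lacked the NRF1 core. Atp5j2, the deepest fall in complex V, held none of the 4. Whether any of these letters go with the direction of change was not tested.

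The levels of the subunits differed between complexes. Per kb of merged exons, the median subunit of complex IV stood at 16188 normalized reads, that of complex V at 5607, of complex III at 4890, of complex I at 2437 and of complex II at 2231, averaged over the 12 libraries. The highest was Cox4i1, the largest nuclear subunit of complex IV, at 37025 per kb. Within the other complexes the highest per kb were Ndufb9 (19958), Sdha (2705), Uqcrh (8908) and Atp5l (19564), and the lowest tested were Sdhc (841), Uqcrq (2082), Cox6c (5052) and Atp5j (116). These lengths come from an annotation that may differ from the one used for counting, and Cox6c and Atp5j overlap other genes (Vps13b and Gabpa), so that levels per kb of single genes are uncertain. The 8 tissue isoforms lay far lower, from 0 for Cox8c to 420.2 per kb for Cox7a1. Ndufs5, a complex I subunit, was listed at 0 in every library but P18 replicate 3, where it had 1 read, and with Cox8c it was not tested, which left 88 members with a mean of at least 10.

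Together the 74 subunits took 2.43% ± 0.254 of all normalized reads at P18, 2.54% ± 0.24 at P75, then 1.7% ± 0.166 at 6 months and 1.96% ± 0.0996 at 24 months (SD, n = 3 libraries). The 54 accessory subunits went from 1.72% ± 0.186 at P75 to 0.973% ± 0.145 at 6 months, while the 20 core subunits went from 0.813% ± 0.0606 to 0.73% ± 0.0216. The low point at 6 months thus lay mostly in the accessory subunits. In an RNA pool from a tissue fraction, fewer fragments of a cell type and less RNA per fragment cannot be told apart.

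**Figure D1:**
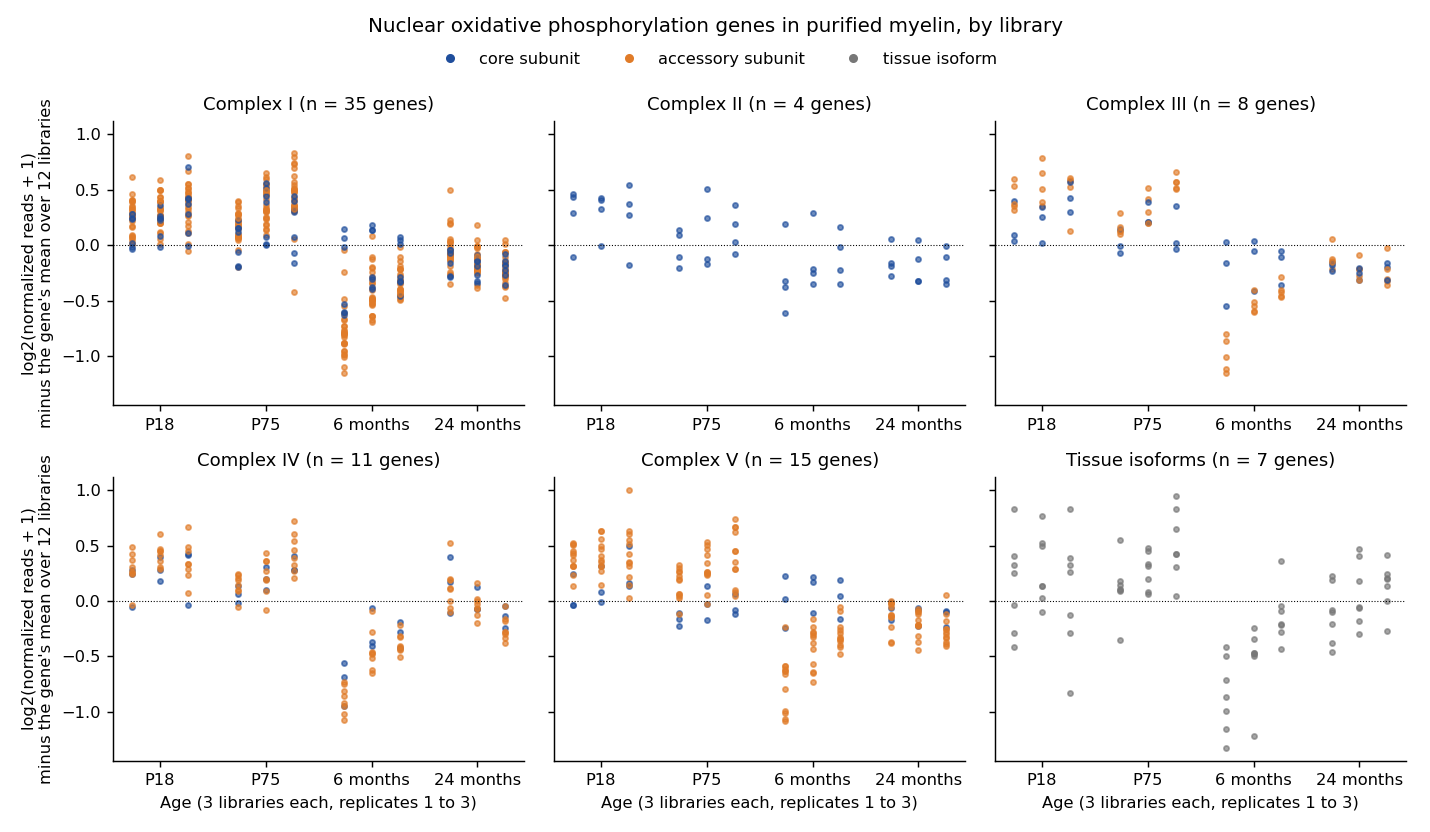
Each point is 1 gene in 1 library, as log2(normalized reads + 1) minus the gene's mean over the 12 libraries, for subunits of complexes I to V and the tissue isoforms, with replicates 1 to 3 from left to right at each age. Most accessory subunits lay below their mean in all 3 libraries at 6 months and lowest in replicate 1, while a few core subunits of complexes I, II, III and V lay near or above it.

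From P18 to P75, the ages between active myelination and young adulthood, few members changed. With limma at an adjusted p under 0.1 (Benjamini-Hochberg over all 14634 genes tested), 5 of the 88 rose and 15 fell, while 25.9% of all genes tested were called higher and 22.9% lower. The median member changed by -0.03 on the log2 scale and the median of all genes by 0.02. Scaling the libraries to the same total, which lifts the median of all genes by over 0.1, turned the split to 10 higher and 6 lower, leaving out P75 replicate 3 gave 1 higher and 15 lower, and leaving out P75 replicate 1 gave 7 higher and 8 lower with a median of 0.041. Over all 14634 genes these settings gave 4739 higher and 1827 lower, 3350 and 2883, and 3427 and 3039. Markers moved over the same interval: 8 of the 10 myelin genes fell, with sums of 2486150 to 6209200 at P18 and 1286060 to 1857400 at P75, and 9 of 13 microglial markers rose, with sums of 7001 to 7929.6 and 9886 to 10939.8. Their part in the members' changes was not tested. Complex V gave 5 of the falls among 15 subunits and complex I gave 5 among 35, beside 3 rises.

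Among complex V subunits the deepest fall from P18 to P75 was in Atp5g1. It stood at 6637, 7264 and 9364 at P18, 4753, 5619 and 4831 at P75, then 3021, 3735 and 3741 at 6 months and 3597, 3451 and 3579 at 24 months, and the P18 libraries lay above all later ones. The log2 change to P75 was -0.60 ± 0.12, adjusted p = 0.0009. In complex II the membrane anchor Sdhd stood at 3191, 3082 and 2802 at P18 and at 2155, 2125 and 2365 at P75, without overlap (-0.45 ± 0.09, adjusted p = 0.000829). Uqcr11, a small complex III subunit, changed by -0.36 ± 0.16, adjusted p = 0.0795, and Cox6b1, which faces the intermembrane space in complex IV, by -0.33 ± 0.12, adjusted p = 0.0466. Complex I held both directions: the accessory subunit Ndufa10 fell (-0.45 ± 0.11, adjusted p = 0.00478) and Ndufb4 rose (0.41 ± 0.14, adjusted p = 0.0288). Ndufb4 stood at 4512, 4338 and 4959 at P18 and 5187, 6308 and 6976 at P75, without overlap. Of the 20 core subunits 5 fell, among them Sdhc, Sdhd, Atp5c1 and Ndufv1.

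From P75 to 6 months nearly every subunit fell. Of the 88 members tested 73 fell and 3 rose, against 29.4% of all genes called lower and 31.2% called higher. The median member fell by 0.74 on the log2 scale, while the median of all genes changed by 0.01. Of the 73 falls, 69 had P75 and 6-month libraries that did not overlap, as did all 3 rises. Overlap was not counted over all genes and comes from the same values as the calls, so these counts add no further support. Without 6 months replicate 1 there were 64 falls and 3 rises, and Atp5c1, Cox4i1, Cox4i2, Cox6a1, Cox6a2, Cox7a2l, Cox7b2, Ndufaf4 and Ndufb9 no longer passed. The same fit gave 3731 falls and 3977 rises over all 14634 genes. By complex, 31 of 35 subunits fell in complex I, 2 of 4 in complex II, 6 of 8 in complex III, all 11 in complex IV and 12 of 15 in complex V, with medians of -0.79, -0.29, -0.92, -0.78 and -0.60. Core and accessory subunits differed in their counts: 51 of the 53 accessory subunits tested fell and the others, Ndufa10 and Atp5f1, did not pass, while of the 20 core subunits 11 fell, 3 rose and 6 did not pass.

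Complex I takes in NADH through its flavoprotein arm. The flavoprotein gene Ndufv1, which binds NADH, stood at 3460.3, 3705 and 4259.8 at P18, 3082, 3539 and 3131 at P75, then 3658, 3989 and 3691 at 6 months and 3409, 3181 and 3169 at 24 months. Its 6-month libraries all lay above those of P75, by a log2 change of 0.22 ± 0.09, adjusted p = 0.0528. Its partner in the same arm, Ndufv2, an iron-sulfur protein, stood at 7682, 7802 and 8437 at P18, 7245, 8495 and 8849 at P75, then 4249.8, 4929.8 and 5172 at 6 months and 6186, 5724 and 5381 at 24 months. Here the 6-month libraries all lay below those of P75, by a log2 change of -0.78 ± 0.10, adjusted p = 1.33e-05. Ndufs1, the largest core subunit, stood at 4707, 4782 and 4820.3 at P18, 4629.8, 5095 and 5104 at P75, then 5359, 5327 and 4999 at 6 months and 4695, 4380 and 4249.7 at 24 months, with overlap between P75 and 6 months (0.08 ± 0.08, adjusted p = 0.398). The smaller core subunits Ndufs3, Ndufs7 and Ndufs8, which carry electrons toward ubiquinone, fell by 0.85, 0.75 and 0.68 on the log2 scale, each below its P75 libraries in all 3 at 6 months.

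The deepest fall in complex I was that of Ndufa6, an accessory subunit of the LYR family. It stood at 5937, 5786 and 5665 at P18, 6179, 6869 and 8312 at P75, then 2348, 2903 and 3321 at 6 months and 4419, 4138 and 3883 at 24 months. The 6-month values were the lowest of all 12 libraries, and the 24-month values lay between them and those of the young ages. The log2 change from P75 to 6 months was -1.32 ± 0.12, adjusted p = 6.09e-07. Ndufb9, the complex I subunit with the highest level per kb, stood at 12839, 14630 and 12242 at P18, 13119.6, 13572 and 15774 at P75, then 7338, 11669 and 10987 at 6 months and 17951, 14433 and 11358 at 24 months, and its fall at 6 months was shallower (-0.53 ± 0.17, adjusted p = 0.0174). Without 6 months replicate 1 it was -0.32 and did not pass (adjusted p = 0.118, limma). Its 24-month values spread widely, and the lowest lay within the 6-month range.

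The other accessory subunits of complex I followed in every series of names. All 10 Ndufb subunits fell from P75 to 6 months, by log2 changes from -1.24 in Ndufb2 (which overlaps Adck2 and Braf) to -0.48 in Ndufb5. Later, from 6 to 24 months, 9 of them rose, where 16.6% of all genes were called higher. Without 6 months replicate 1, Ndufb2, Ndufb3, Ndufb5, Ndufb6, Ndufb7, Ndufb8, Ndufb9 and Ndufb11 lost that later call. Of the 13 subunits tested whose symbols begin with Ndufa, 12 fell, from Ndufa6 to Ndufa9 (-0.26 ± 0.09, adjusted p = 0.0231, limma). Later, from 6 to 24 months, 9 of the 13 rose. Without 6 months replicate 1, Ndufa2, Ndufa3, Ndufa7, Ndufa12 and Ndufab1 lost that later call. Ndufa9 and Ndufa10 are among the longest accessory subunits, and Ndufa10 was the accessory subunit of complex I that did not fall (0.16 ± 0.11, adjusted p = 0.233). Both Ndufc subunits, Ndufs4, Ndufs6 and Ndufv3 fell as well, Ndufc1 by 1.18, Ndufs4 by 0.77, Ndufs6 by 0.67 and Ndufv3 by 0.97 on the log2 scale. Ndufab1, the mitochondrial acyl carrier protein that also serves in complex I, fell by 0.95.

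Complex II is encoded wholly in the nucleus, and its subunits parted at 6 months. Sdha, the flavoprotein that oxidises succinate, stood at 9708, 10398 and 9214 at P18, 9062, 9287 and 9877 at P75, then 11961, 12749 and 11712 at 6 months and 10832, 10812 and 10416 at 24 months. All 6-month values lay above those of every other age, and the log2 change from P75 was 0.37 ± 0.09, adjusted p = 0.00233. Sdhb, the iron-sulfur subunit that takes electrons from Sdha, stood at 6959, 7141 and 8306 at P18, 6250.2, 8114 and 7344 at P75, then 3716, 4459 and 4465 at 6 months and 5011, 4539 and 4479 at 24 months. All of its 6-month and 24-month values lay below those of P75 and P18 (-0.78 ± 0.11, adjusted p = 2.85e-05 from P75 to 6 months). The membrane anchor Sdhc fell (-0.46 ± 0.08, adjusted p = 0.000102), while the other anchor, Sdhd, changed by -0.12 ± 0.09, adjusted p = 0.281.

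**Figure D2:**
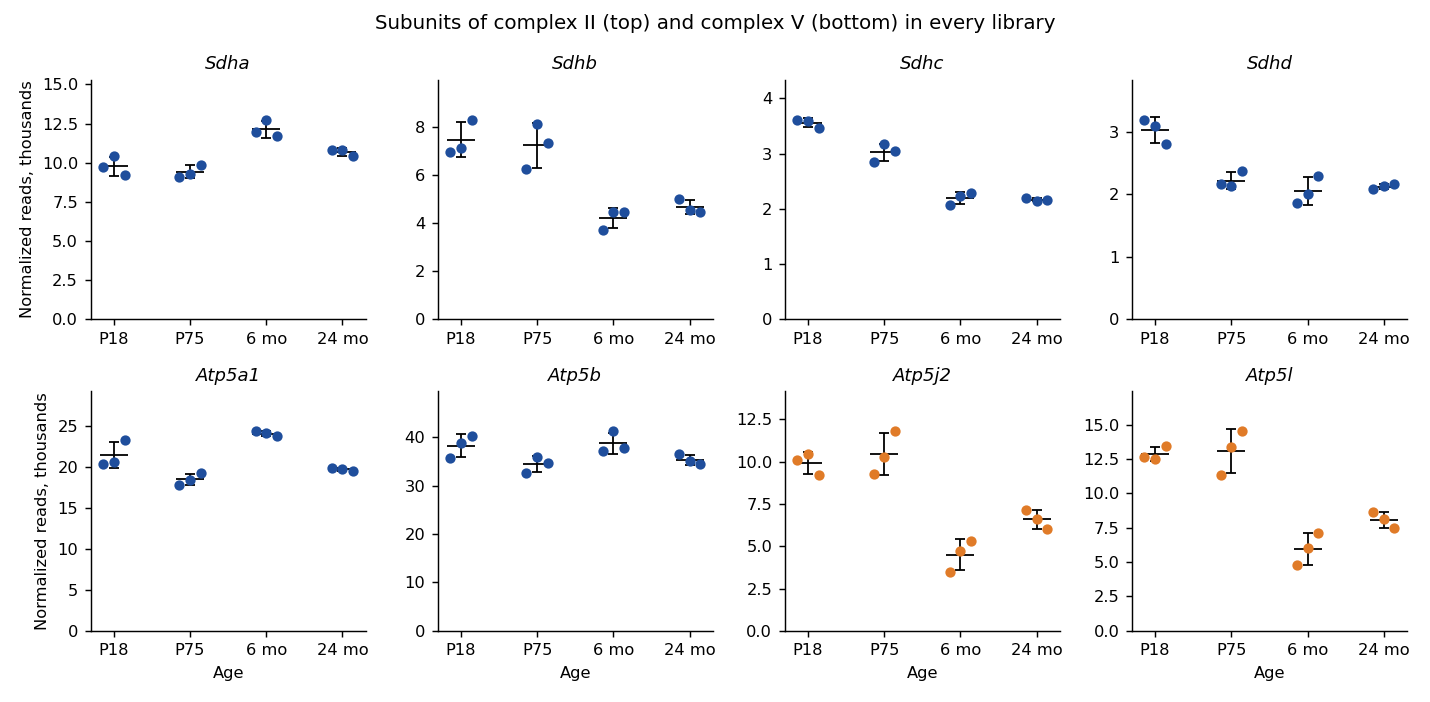
Normalized reads (in units of 1000, axes from 0) of 4 complex II subunits in the upper row and 4 complex V subunits in the lower row; points are libraries, bars the mean and SD of 3 libraries per age, with core subunits in blue and accessory subunits in orange. Sdha and Atp5a1 were highest at 6 months, while Sdhb, Sdhc, Atp5j2 and Atp5l were well below their P75 level there.

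In complex III the same division was seen. The core proteins Uqcrc1 and Uqcrc2 stood at 6873 ± 699 and 8419 ± 796 at P75 and at 6139.9 ± 236 and 8099 ± 283 at 6 months (SD, n = 3), and neither passed the test (-0.16 ± 0.10, adjusted p = 0.187, and -0.05 ± 0.10, adjusted p = 0.673). The Rieske iron-sulfur protein Uqcrfs1 fell (-0.73 ± 0.09, adjusted p = 9.64e-06), as did every accessory subunit. Uqcrb, which lies beside the ubiquinone site, stood at 6127, 6118 and 7204 at P18, 5852, 6843 and 6841 at P75, then 2755, 3149 and 3467 at 6 months and 4124, 4129 and 3835 at 24 months. It fell most, with 6-month values below those of all other ages and a log2 change of -1.06 ± 0.10, adjusted p = 8.71e-07. Uqcrh, the hinge protein that binds cytochrome c1, fell by 0.84 on the log2 scale.

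Complex IV was the complex in which every subunit fell with all libraries in the fit, from -1.17 in Cox6c to -0.37 in Cox6a1. Cox6c stood at 20715, 20866 and 20102 at P18, 20299, 23126 and 28179.8 at P75, then 8139, 11152 and 12917 at 6 months and 19560.5, 17116 and 14090.4 at 24 months, with the 6-month libraries all below the rest (-1.17 ± 0.16, adjusted p = 2.53e-05 from P75). Cox4i1, the most abundant subunit per kb, stood at 23839, 28054 and 24136 at P18, 24434, 26565 and 30139 at P75, then 15376, 23767 and 21767 at 6 months and 32624, 27012 and 23961 at 24 months. Its 6-month libraries also lay below those of P75, but closer to them (-0.43 ± 0.16, adjusted p = 0.0333). Without 6 months replicate 1, the change of Cox4i1 was -0.24 (adjusted p = 0.199) and that of Cox6a1 -0.17 (adjusted p = 0.39), so that 9 of the 11 subunits were called lower. Of the other core subunits, Cox5a fell by 0.58 and Cox5b by 0.88 on the log2 scale, and Ndufa4 by 0.68. Cox7a2l, the supercomplex factor, rose from P18 to P75 (0.44 ± 0.17, adjusted p = 0.0486) and then fell (-0.37 ± 0.17, adjusted p = 0.077, or -0.20 with adjusted p = 0.364 without 6 months replicate 1), with P75 and 6-month libraries that overlapped.

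In complex V the large subunits of the catalytic head and the small subunits differed. The alpha subunit gene Atp5a1 stood at 20313, 20618 and 23267 at P18, 17753, 18402 and 19164 at P75, then 24306, 24108 and 23683 at 6 months and 19869, 19689 and 19445 at 24 months. Its 6-month values were the highest of all 12 libraries, and the log2 change from P75 was 0.38 ± 0.10, adjusted p = 0.00431. The beta subunit gene Atp5b, which holds the catalytic sites, stood at 35741, 38748 and 40319 at P18, 32668, 35998 and 34694 at P75, then 37097, 41227 and 37864 at 6 months and 36492, 35079 and 34456 at 24 months, and its 6-month values lay above those of P75 without passing the test (0.17 ± 0.12, adjusted p = 0.241). Atp5c1, the gamma shaft, fell slightly (-0.20 ± 0.09, adjusted p = 0.0797). Small subunits of the membrane part fell most. Atp5j2 (subunit f) stood at 10117, 10457 and 9219 at P18, 9303, 10275 and 11803 at P75, then 3494, 4714 and 5329.7 at 6 months and 7119.8, 6593 and 6039 at 24 months, a log2 change of -1.23 ± 0.13, adjusted p = 2.61e-06 from P75 to 6 months. Atp5k (subunit e) and Atp5l (subunit g), which lie where the enzyme forms dimers, fell by 1.21 and 1.15 on the log2 scale. For Atp5l the libraries were 11338, 13385 and 14525 at P75 and 4755, 6038 and 7093 at 6 months, so that no 6-month value came near the P75 range.

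After 6 months the direction was the other way for most subunits. Of the 88 members 46 rose and 2 fell, against 16.6% of all genes called higher and 12.7% called lower, and the median member rose by 0.32 on the log2 scale against 0.03 for all genes. This comparison shares the 6-month libraries with the one before, so their directions are not independent. It also rests largely on 6 months replicate 1, which was the lowest of its age in 79 of the 88 members. Without that library 16 members were called, all higher, with a median rise of 0.21. Of all 14634 genes, 1454 were then called higher and 1024 lower, where 2435 and 1852 were with all libraries. Without 24 months replicate 1 there were 28 members higher and 1 lower, and 1739 and 1082 of all genes. In complex IV all 11 subunits were higher, with a median of 0.50. Without 6 months replicate 1, Cox4i1, Cox5a, Cox6a1, Cox6b1 and Cox8a of these lost their call. After the GC and length correction described below, 1 of the 11 was higher, with a median of 0.12. As deposited, 23 of 35 rose in complex I, 5 of 8 in complex III and 5 of 15 in complex V. The 4 complex II subunits did not pass, with log2 changes of -0.18 (Sdha), 0.15 (Sdhb), -0.02 (Sdhc) and 0.05 (Sdhd).

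Cox6c rose most in complex IV (0.67 ± 0.16, adjusted p = 0.0115), with 24-month values of 19560.5, 17116 and 14090.4 that all lay above those at 6 months. Ndufa1, a small membrane-arm subunit of complex I encoded on the X chromosome, went from 1800.3, 2175 and 2504 to 3592, 3252 and 3028, without overlap (0.62 ± 0.13, adjusted p = 0.00452). Uqcrq of complex III changed by 0.54 ± 0.16, adjusted p = 0.0292, and Atp5k of complex V by 0.59 ± 0.14, adjusted p = 0.0112. The members that fell were core subunits that had been level or higher at 6 months. Atp5a1 went from 24032 ± 318 at 6 months to 19668 ± 212 at 24 months (SD, n = 3; -0.29 ± 0.10, adjusted p = 0.0527), and Ndufs1 from 5228 ± 199 to 4441 ± 229 (-0.24 ± 0.08, adjusted p = 0.0466). Sdha changed by -0.18 ± 0.09, adjusted p = 0.15, with 24-month values below all 6-month ones.

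Compared directly, 24-month myelin held less of most subunits than P75 myelin. Of the 88 members 62 were lower and 1 (Sdha) higher, against 26.1% and 28.8% of all genes, and the median log2 difference of the members was -0.42. All 8 complex III subunits were lower, from -0.69 to -0.23. In complex I 27 of 35 were lower, in complex V 11 of 15 and in complex IV 8 of 11. The complex IV subunits that did not pass were Cox4i1 (0.04 ± 0.16, adjusted p = 0.87), Cox6a1 (0.19 ± 0.17, adjusted p = 0.366) and Ndufa4 (-0.19 ± 0.12, adjusted p = 0.226). The deepest difference was in Ndufa11, a complex I subunit of the membrane arm, at -0.77 ± 0.12, adjusted p = 0.000132, and Ndufa6 (-0.77 ± 0.12, adjusted p = 0.000115) was close to it. The higher level of Sdha at 24 months than at P75 was slight (0.18 ± 0.09, adjusted p = 0.0963).

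The changes after P75 went with the length of the gene's message. Across the 88 members, the log2 change from P75 to 6 months had a Pearson r of 0.76 with the log2 coding length and 0.62 with the log2 median length of the coding transcripts, and the change from 6 to 24 months had -0.84 and -0.68. With the log2 merged exon length the r was weaker, at 0.40 and -0.54. Spearman's rho with coding length was 0.70 and -0.81. These correlations are across genes of the same 12 libraries and are descriptions only. Over all genes with a length (14148), the r with coding length was 0.26 and -0.22, of the same signs and smaller. From P18 to P75 the members' r was -0.22.

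All 45 members with a median transcript under 700 bases fell from P75 to 6 months, with a median of -0.89, while the 658 genes of all kinds in that range had a median of -0.46. Of the 31 members from 700 to below 1500 bases 25 fell and 1 rose, with a median of -0.65 against -0.23 for all genes in the range. Of the 12 members of 1500 bases or more 3 fell and 2 rose, with a median of 0.01 against 0.09. Of all genes tested, of any length, 29.4% were called lower and 31.2% higher. Calls of all genes were not counted by range, so the members' counts have no like share beside them. The ranges are also wide. In narrower bins the medians of all genes, members included, were -0.60 below 400 bases (41 genes) and -0.88 from 400 to 500 (92 genes). They were -0.50 from 500 to 600 bases, -0.33 from 600 to 700 and -0.052 from 1500 to 2000. Over the 7366 genes with merged exons no longer than the 90th percentile of the members, the median was -0.11. In the last interval, from 6 to 24 months, the medians of the same 3 ranges were 0.44, 0.16 and -0.12 in the members and 0.29, 0.13 and -0.02 in all genes.

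**Figure D3:**
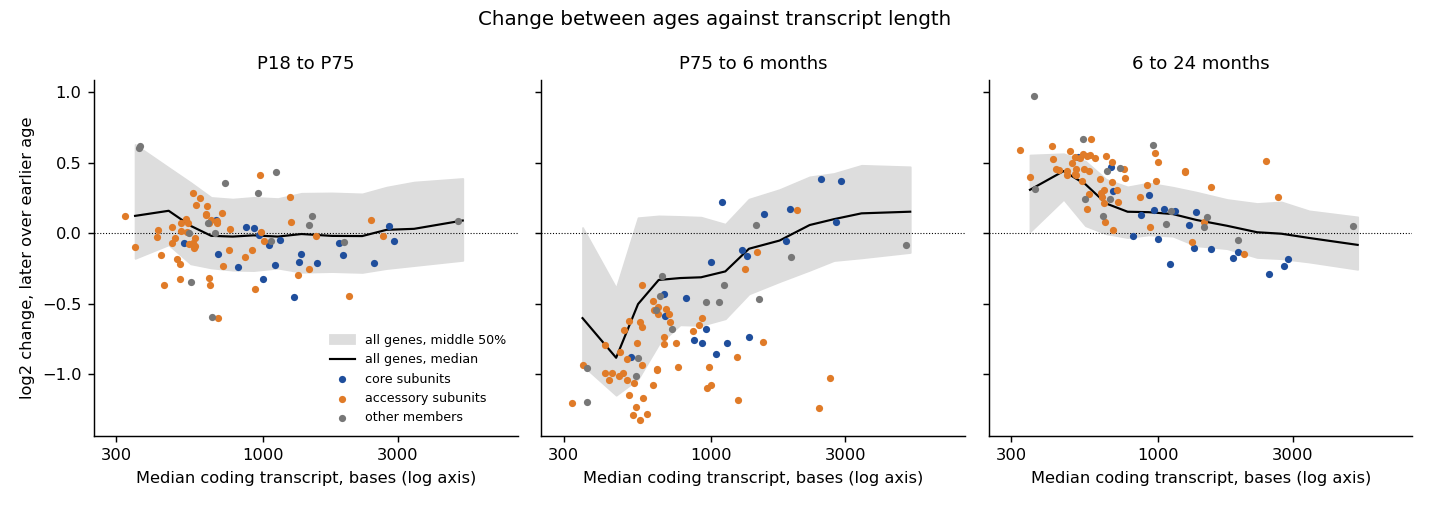
Log2 change between consecutive ages against the median length of each gene's coding transcripts (log axis); points are the 88 members tested, coloured by class, the black line is the median of all genes tested in bins of length and the band their middle 50%. From P75 to 6 months the members under 700 bases had a median of -0.89 and those of 1500 bases or more a median of 0.01, and the line of all genes rose with length as well.

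The fit was therefore repeated with the trend on GC content and merged exon length, not coding length, taken out of each library. From P75 to 6 months 57 members were then lower and 7 higher, against 32.9% and 27.7% of all genes, with a median of -0.32. Of the accessory subunits 43 of 53 were lower and 1 higher, 42 of the 51 called lower before being called again, and their median went from -0.89 to -0.46, while the median of the core subunits was 0.01, with 8 lower and 5 higher. For complex IV, 6 of 11 subunits were still lower, and Cox4i1, Cox5a, Cox6a1 and Ndufa4 had log2 changes of 0.08, 0.00, 0.04 and 0.04. Sdha, Atp5a1 and Ndufv1 were still called higher, at 0.29, 0.24 and 0.15. With the median transcript length in place of merged exons, 59 members were lower and 4 higher, where 4677 and 3961 of 14153 genes were. Complex IV then had 9 of 11 subunits lower, with a median of -0.45, and complex V 8 of 15. The core subunits gave 9 lower and 3 higher, with a median of -0.12, and the accessory subunits had a median of -0.53. With merged exon length, from 6 to 24 months 11 members, among them 1 complex IV subunit, were higher and 13 lower, against 12.3% and 15.9% of all genes. With the median transcript length in the correction instead, 16 were higher and 6 lower, against 12.5% and 16.6% of all genes, with a median of 0.14, and 15 of the rises were in accessory subunits and 5 in complex IV. Again with merged exon length, from P18 to P75 there were 5 higher and 33 lower, against 23.9% and 28.7%. From P75 to 24 months 58 were lower and 2 higher, against 35.9% and 24.9%, with all 8 complex III subunits and 13 of 15 complex V subunits lower, but 3 of 11 in complex IV. Those higher were Cox6a1 and Ndufaf1, and Sdha did not pass (0.08, adjusted p = 0.41). No fit took out coding length, so the changes left after these corrections are not free of every length trend. Whether the relation to length arose in the tissue, the RNA or the libraries was not tested.

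**Figure D4:**
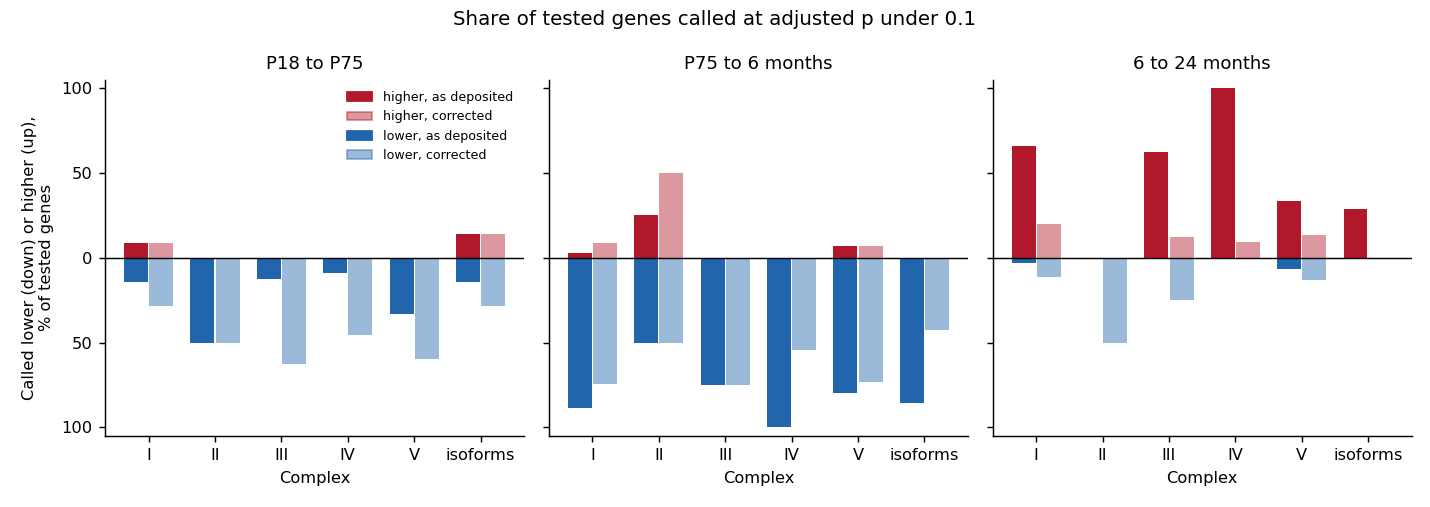
Share of tested genes called higher (red, upward) or lower (blue, downward) at an adjusted p under 0.1 in each complex and in the tissue isoforms, for the values as deposited (full colour) and after the GC and length correction (pale). From P75 to 6 months falls prevail under both in every complex but complex II, whereas from 6 to 24 months 46 members were higher as deposited and 11 after the correction.

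Some complex IV subunits exist as isoforms that are known from heart and skeletal muscle, lung or testis. In these myelin libraries the isoform of restricted range made up a small part of each pair, per kb of merged exons. The largest was that of Cox7a1, the heart and muscle isoform, in the sum of Cox7a1 and Cox7a2, at 3.02%, 3.09% and 2.5% at P18, 5.21%, 4.56% and 4.36% at P75, then 4.7%, 3.76% and 4.09% at 6 months and 3.32%, 3.85% and 4.26% at 24 months. The P18 shares were below all others, and an exact permutation test over the 4 ages (one-way F, 369600 arrangements, smallest possible p 6.49e-05) gave p = 0.00435, or 0.0131 adjusted over the 9 shares tested. Ndufa4l2, a paralog of Ndufa4 known to be induced by low oxygen, made up 0.0466%, 0.0549% and 0.0459% at P18, 0.0694%, 0.0681% and 0.0687% at P75, then 0.0852%, 0.0671% and 0.0807% at 6 months and 0.0746%, 0.096% and 0.09% at 24 months of the pair (adjusted p = 0.0131, same exact permutation test), from 12 to 23 reads a library. Its share was lowest at P18, and those of 6 and 24 months overlapped.

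For Cox6a2 of Cox6a1 and Cox6a2, the shares were 2.36%, 2.15% and 3.1% at P18, 1.52%, 2.25% and 1.66% at P75, then 1.54%, 1.67% and 1.86% at 6 months and 1.23%, 1.47% and 2.1% at 24 months. Their mean was highest at P18, but the ages overlapped (adjusted p = 0.146, exact permutation test). Cox8b of Cox8a and Cox8b had mean shares of 0.466% to 0.758% (adjusted p = 0.195), Cox6b2 of Cox6b1 and Cox6b2 of 0.752% to 0.867% and Cox4i2 of Cox4i1 and Cox4i2 of 0.118% to 0.14% (adjusted p = 0.700 for both). Cox7b2 had 7 to 26 reads a library, beside a mean of 9345 normalized reads of Cox7b, and its share was not tested, and Cox8c had no read in any. As levels, 6 of 7 tissue isoforms fell from P75 to 6 months, against 29.4% of all genes. Without 6 months replicate 1 it was 3 of 7 (Cox4i2, Cox6a2 and Cox7b2 lost their call), where 3731 of 14634 genes fell. After the GC and length correction it was 3 of 7, against 32.9% of all genes. From P18 to P75 1 (Cox7a1, 0.62 ± 0.14, adjusted p = 0.00179) had risen, while Cox6a2 had fallen (-0.59 ± 0.20, adjusted p = 0.024), against 25.9% and 22.9% of all genes. Of 8 muscle markers 5 were abundant enough to test. From P75 to 6 months 4 of these (Myh7, Myl2, Tnni3 and Acta1) fell, against 29.4% of all genes. The sum of the 8 lay at 543 to 573 normalized reads at P18, 548 to 599.9 at P75, then 349 to 409.7 at 6 months and 365 to 472 at 24 months. Their part in the isoform levels was not tested.

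**Figure D5:**
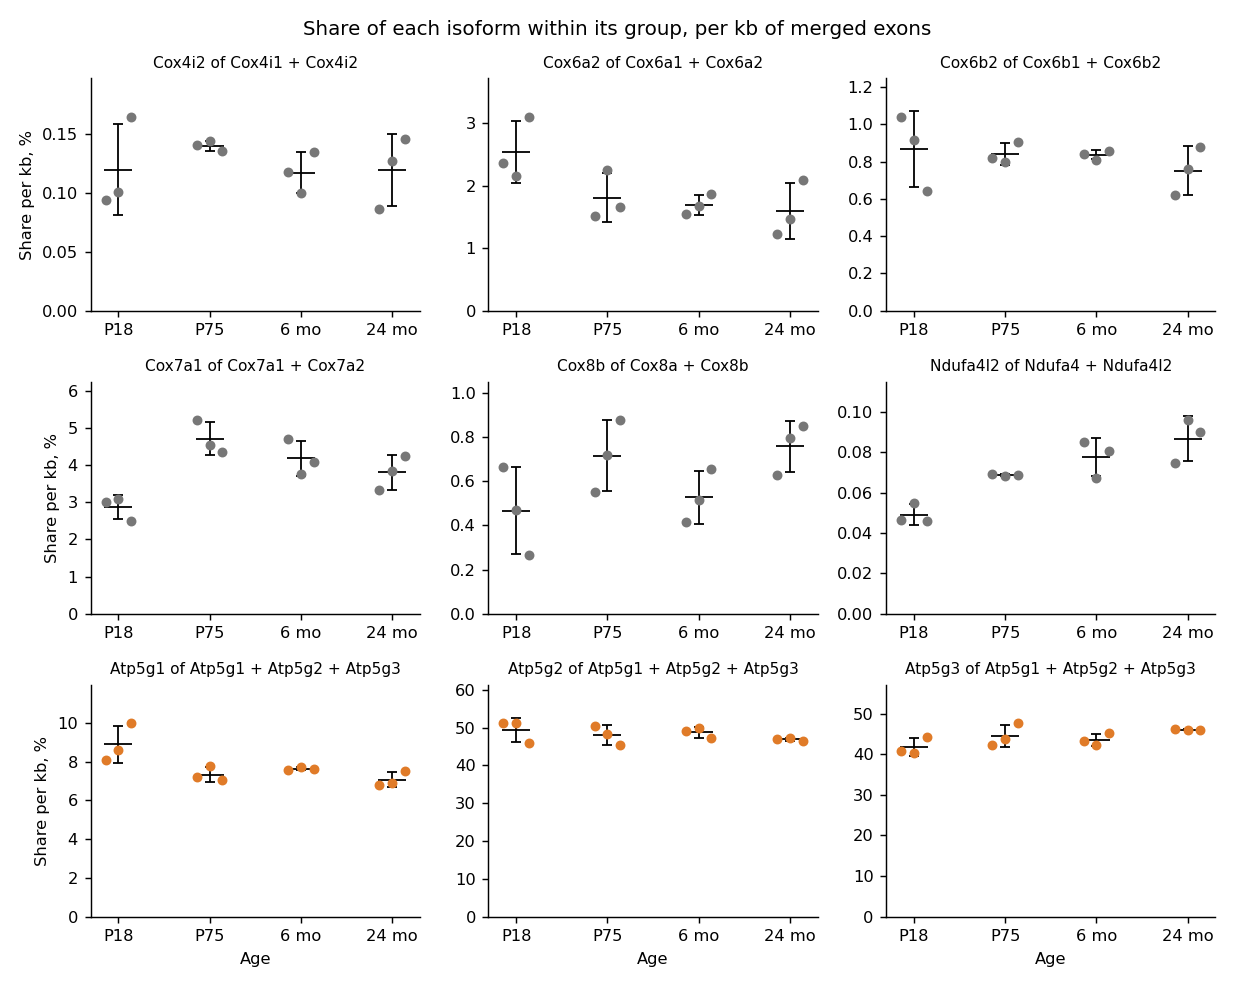
Share of each isoform in its group (percent, axes from 0), from normalized reads per kb of merged exons; points are libraries and bars the mean and SD of 3 libraries per age. Cox7a1 and Ndufa4l2 were lowest at P18, and Atp5g1 was highest there.

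For the c subunit of complex V, whose coding ends are shown above, the share of Atp5g1 in the 3 genes was 8.11%, 8.59% and 9.98% at P18, 7.19%, 7.76% and 7.07% at P75, then 7.6%, 7.72% and 7.61% at 6 months and 6.79%, 6.91% and 7.51% at 24 months. It was higher at P18 than at any later age in every library (p = 0.00325, adjusted p = 0.0131, exact permutation test). Atp5g2 made up 49.4% ± 3.06 at P18 and 46.9% ± 0.387 at 24 months (adjusted p = 0.684, permutation test), and Atp5g3 41.7% ± 2.13 and 46% ± 0.118 (adjusted p = 0.195, permutation test; SD, n = 3). The merged exons of Atp5g1 span 4908 bases and its median transcript 691, so the levels of all 3 shares depend on the length used. With the median transcript Atp5g2 had 20.7% at P18 and 19.8% at 24 months, Atp5g1 had 26.4% at P18 and 21.2% at 24 months, and Atp5g3 went from 52.9% to 59%, which then passed the test.

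Most other genes of the chain fell as well. Of 9 partners and subunits outside the symbols 8 were in the table. Of these, 6 fell from P75 to 6 months and the others did not pass, with a median of -0.78, against 29.4% of all genes called lower. The deepest was Usmg5, a small complex V subunit, from 14184 ± 2544 to 5569.8 ± 1548 (SD, n = 3; -1.37 ± 0.17, adjusted p = 8.66e-06), and it rose again to 9255 ± 1463 at 24 months (0.76 ± 0.17, adjusted p = 0.00803). Cytochrome c itself (Cycs) changed by -0.62 ± 0.10, adjusted p = 6.28e-05 and cytochrome c1 (Cyc1) by -0.18 ± 0.09, adjusted p = 0.113, and Atpif1, the inhibitor of complex V, had already fallen from P18 to P75 (-0.33 ± 0.11, adjusted p = 0.0232). The 13 subunits encoded by mitochondrial DNA were not analysed here.

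Assembly factors moved in both directions. Of the 4 complex I assembly factors among the members, 3 fell from P75 to 6 months: Ndufaf2 changed by -0.54 ± 0.10, adjusted p = 0.00038, Ndufaf3 by -0.48 ± 0.09, adjusted p = 0.000271, Ndufaf4 by -0.30 ± 0.12, adjusted p = 0.0454 and, without passing, Ndufaf1 by 0.06 ± 0.09, adjusted p = 0.618. Of the 3 symbol matches without a role assigned here, Atp5s fell (-0.47 ± 0.10, adjusted p = 0.000708, limma), while Atp5sl changed by -0.17 ± 0.09, adjusted p = 0.135. Cox4nb, a subunit of an endoplasmic reticulum complex that lies next to Cox4i1, changed by -0.08 ± 0.11, adjusted p = 0.552. Of 26 further factors tested 11 fell and 6 rose, where 29.4% and 31.2% of all genes did, with a median of -0.05, and Sco2 was listed at 0 in all libraries. Cox17, a copper chaperone of complex IV, moved with the small subunits, at 3351 ± 420.4 at P75 and 1388 ± 332 at 6 months (-1.29 ± 0.14, adjusted p = 2.74e-06). Taco1, which aids translation of the mitochondrial subunit Cox1, moved the other way, from 54.7 ± 7.27 to 136 ± 16.6 (1.30 ± 0.16, adjusted p = 7.39e-06).

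Of 14 regulators of mitochondrial genes 8 fell and 2 rose from P75 to 6 months, against 29.4% and 31.2% of all genes. Ppargc1a, the coactivator of mitochondrial biogenesis, went from 1317 ± 119 to 987 ± 12.2 (-0.41 ± 0.09, adjusted p = 0.00122), and Nrf1, whose core site was searched above, from 360.3 ± 17.4 to 293 ± 17.5 (-0.30 ± 0.09, adjusted p = 0.0129). The largest fall was in Yy1 (-0.53 ± 0.10, adjusted p = 0.000319), and the risers were Hif1a, the oxygen-sensitive factor (0.41 ± 0.09, adjusted p = 0.00134), and Pprc1 (0.31 ± 0.11, adjusted p = 0.0322). From P18 to P75 the largest fall was in Gabpb1, a partner of the ETS factor Gabpa (-0.26 ± 0.09, adjusted p = 0.0292). From 6 to 24 months 1 of the 14 rose (Yy1) and 1 fell (Hif1a), against 16.6% and 12.7% of all genes.

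Markers of the cell types that a myelin fraction could hold were counted in the same way. Of all genes, 31.2% were called higher and 29.4% lower from P75 to 6 months. The shares from 6 to 24 months were 16.6% and 12.7%. From P75 to 6 months 9 of 13 neuronal markers rose and 3 fell, Syt1 most (2.34 ± 0.13, adjusted p = 8.58e-09), while their sum ran over 223589 to 255871 normalized reads at P75 and 215700 to 223455 at 6 months. The counts and the sum thus went different ways, since the abundant Snap25 was among those that fell (-0.68 ± 0.17, adjusted p = 0.00299). Of 7 markers of fast-spiking interneurons 5 rose and 1 fell, with sums of 31990.4 to 34920.1 and 35692 to 37889. Of 12 astrocyte markers 3 rose and 2 fell (110767 to 118314 and 107263 to 119443), and of 13 microglial markers 7 rose and 2 fell (9886 to 10939.8 and 11486 to 12902). The 10 myelin genes, which define the fraction, were present at every age and gave 2 rises, with 8 that did not pass (1286060 to 1857400 and 1368710 to 2383140). For blood vessels, 3 of 12 endothelial markers rose and 3 fell (2179 to 2905 and 2041 to 2246), and 4 of 13 pericyte and smooth muscle markers rose and 1 fell (1411 to 1504 and 1868 to 2127). From 6 to 24 months 8 of 13 microglial markers rose, with sums of 11486 to 12902 at 6 months and 17552 to 21599 at 24 months, and 4 of 13 neuronal markers fell. The 4 adult globin genes of red blood cells were listed at 0 in all 12 libraries, and Alas2, the other marker of that list, fell from P18 to P75 (-3.30 ± 0.21, adjusted p = 4.55e-08). The part of these cell types in the levels of the respiratory genes was not tested.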

How the data were processed

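RNA from purified myelin of 12 libraries was measured by Illumina sequencing. Per the submitters' processing notes, the authors mapped reads to the mouse genome (mm9) by means of TopHat2 (2.0.8; the methods name a different TopHat release), with SAMtools (0.1.19), counted them per gene by HTSeq (0.5.4p1) and scaled the counts with size factors of DESeq. The deposited values are these scaled counts, a signal that is never negative and that was not divided by length. The annotation used, strand setting and handling of multiply mapped reads were not given in the sources used here, so overlapping genes are uncertain. Dividing by the value of a single read returned whole reads for all values in each library (tolerance 0.0051), 20299052 to 27214385 reads in total. Counting error is therefore small beside the spread between libraries except for isoforms of a few reads.

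The values were tested as log2(value + 1) with the limma trend method (limma 3.58.1, R 4.3.3) in 1 fit of all 12 libraries with age as the only term, on the 14634 genes whose mean reached 10. Calls are at an adjusted p under 0.1 (Benjamini-Hochberg over all genes tested, as in the study), and errors of log2 changes are standard errors. Fold changes on this scale are understated for low genes. Groups came from the age in the sample labels. Isoform shares per kb were tested over the 4 ages by an exact permutation of the one-way F over 369600 arrangements, adjusted over 9 shares. Lengths came from GENCODE vM1 on NCBIM37, with 96.3% of symbols matched (91.3% with a transcript length), and upstream sequence from RefSeq on GRCm38.p6. No coordinates were moved between builds. The members, lists and tests were chosen with earlier results of these data known. Genes named in the text are the isoform groups, the core subunits, and per complex or list the largest called rise and fall between consecutive ages and the highest and lowest level per kb, and other genes named were chosen after their values were seen. A few genes that this rule would name are not reported here.

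Alternatives were other pseudocounts, filters and scalings, edgeR 4.0.16 and DESeq2 1.42.0 on the recovered reads, a GC and length correction, a replicate block, and each library left out in turn. The code was tested on simulated data. Library numbers are shared between ages in the labels. Between P75 and 6 months the deviations of same-numbered libraries from their age means correlated across genes with r = 0.16, 0.10 and 0.19, all over 0.1, which hints at pairing there, although no label says what a number stands for. The values reported are without the block, and the block changed no member's call in that comparison. In the other comparisons the correlations were below 0.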

Additional observations from a re-analysis of the deposited data

How the results depend on the processing

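Calls from P75 to 6 months, in both directions together, held their count within 1.5 times under every alternative run, as did those from P75 to 24 months. From P75 to 6 months 60 to 77 of 88 members were called, with 76 as reported. The 76 held 73 falls, with a member median of -0.74. The 60, from the GC and length correction with the replicate block, held 54 falls, with a member median of -0.32. The counts that moved by more were those of the other intervals under a correction for gene length, and from 6 to 24 months without 6 months replicate 1 or 24 months replicate 1. From P18 to P75, 20 members were called as deposited, 38 after the GC and length correction, 36 with the replicate block added to it and 35 with the median transcript length in place of merged exons. From 6 to 24 months the same settings gave 48, 24, 24 and 22. Leaving out 1 library at a time gave 16 to 56 calls from 6 to 24 months, 15 to 26 from P18 to P75, 67 to 76 from P75 to 6 months and 52 to 66 from P75 to 24 months. The low end from 6 to 24 months was the count without 6 months replicate 1, and without 24 months replicate 1 it was 29. Calls over all 14634 genes went down in both settings too, from 2435 higher and 1852 lower to 1454 and 1024, and to 1739 and 1082. The correction with transcript length was added after the data had been seen.

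The replicate block left the counts at 20 from P18 to P75 and 76 from P75 to 6 months, with 49 instead of 48 from 6 to 24 months and 62 instead of 63 from P75 to 24 months. With it Cox6a2 (adjusted p = 0.0521, limma) and Ndufb10 (0.0972) were called from 6 to 24 months and Ndufa4l2 (0.102) was not, and Sdha (0.123) was not called from P75 to 24 months. In these comparisons the libraries share only a number.

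For the shares, the value compared was the difference between the highest and the lowest age mean. For Atp5g3 it passed the test without division by length (6.08 percentage points) and with the transcript length (6.07), where 4.31 as reported did not. Leaving out libraries gave Cox6a2 differences of 0.657 to 1.19 percentage points, with an adjusted p of 0.0653 without 24 months replicate 3. Of 116 log2 changes of named genes, 10 turned their sign and 61 lost their call under at least 1 alternative, which made 19 and 256 of the 3127 pairs of a change and an alternative, 28 of the latter with all libraries, the same threshold and no length correction. From P75 to 6 months the GC and length correction, with or without the replicate block, gave Cox4i1 0.081, Cox5a 0.0011, Cox6a1 0.041, Cox6a2 0.11, Cox7a2l 0.090, Ndufa4 0.040 and Ndufb9 0.025, and the transcript length gave Atp5c1 0.033. From 6 to 24 months the correction gave Cox5a -0.057 and Uqcrb -0.047. The cause of these reversals was not tested. Depth limited Cox7b2 and Ndufa4l2, with under 30 reads a library.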

Other observations

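The enzymes of the tricarboxylic acid cycle, which supply complexes I and II with electrons in the mitochondrial matrix, were called about as often as other genes at 6 months. Of 13 tested, 4 rose and 3 fell from P75 to 6 months, against 31.2% and 29.4% of all genes, with a median log2 change of 0.09, and from 6 to 24 months 4 fell, against 12.7%. Suclg2, a subunit of succinyl-CoA ligase, went from 775 ± 28.8 normalized reads at P75 to 541 ± 107 at 6 months (SD, n = 3; -0.53 ± 0.12, adjusted p = 0.00121, limma). Ogdh, of the oxoglutarate dehydrogenase complex, fell both from P18 to P75 (-0.46 ± 0.08, adjusted p = 0.000248) and from 6 to 24 months (-0.38 ± 0.08, adjusted p = 0.00506).

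Of 9 genes of the mitochondrial outer membrane 3 rose and 5 fell from P75 to 6 months, against the same shares of all genes. Members of the same import complex moved in opposite directions, as the receptor Tomm70a rose (0.36 ± 0.09, adjusted p = 0.00321) and Tomm22 fell (-0.68 ± 0.09, adjusted p = 1.1e-05). The receptor Tomm20 rose from P18 to P75 (0.47 ± 0.11, adjusted p = 0.00195) and from 6 to 24 months (0.58 ± 0.11, adjusted p = 0.00246). Vdac1, the main pore of the membrane, fell in both of these intervals (-0.52 ± 0.08, adjusted p = 0.000155, and -0.23 ± 0.08, adjusted p = 0.0656).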
